A study of Mus musculus with 22 samples.

Results

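Adenylyl cyclases and phosphodiesterases were compared between whole brains of C57BL/6J (B6) and DBA/2J (D2) mice, 2 inbred strains. The members were the genes whose single symbol in the array's platform annotation was Adcy or Pde followed by a digit, whatever their expression. This rule gave 35 of the 22251 genes with such a symbol, 10 adenylyl cyclases and 25 Pde genes. Of the 35, 34 were among the 16016 genes tested, and Pde6c, the cone photoreceptor phosphodiesterase, was not, because 1 of its 24 probesets passed the filter on dim signal. The rule also takes in Pde4dip (myomegalin, a centrosomal and Golgi scaffold) and Pde6d (a carrier of prenylated proteins), which have no phosphodiesterase activity. The platform's own symbol for Pde12 does not match the rule, and it is not a member. All mice were naive adult males, untreated, and each array held whole-brain total RNA of 1 mouse. The arrays were Affymetrix Mouse Exon 1.0 ST arrays, which carry probesets (small groups of probes) along the exons of a gene. There were 10 B6 and 12 D2 arrays.

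Adenylyl cyclases make the second messenger cAMP from ATP when G protein-coupled receptors act on them through stimulatory and inhibitory G proteins. Cyclic nucleotide phosphodiesterases end the signal by hydrolysing cAMP, cGMP or both, and their families differ in substrate and in control by calmodulin, cGMP or phosphorylation. In brain, cAMP acts through protein kinase A, Epac and cyclic nucleotide-gated channels on synaptic plasticity and gene expression, and dopamine signalling in the striatum runs through the cyclase encoded by Adcy5 and the phosphodiesterases encoded by Pde10a and Pde1b.

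Dim probesets were left out, those with a mean log2 value over the 22 arrays under 1.44, which is the middle of the probeset means. Of the members' 999 probesets with values, 834 were kept. A gene value is the median of the gene's kept probesets on 1 array, on the log2 scale, and a difference is D2 minus B6. The array medians over all probesets ran from 1.41 to 1.47 in B6 and from 1.45 to 1.51 in D2. They served as the covariate, which therefore goes partly with strain. The array medians over all gene values, used for centring, ran the other way, from 4.52 to 4.80 in B6 and from 4.40 to 4.73 in D2, and the median difference of all genes tested was -0.053. The array file names carry a letter, A on 8 B6 and 10 D2 arrays and B on 2 arrays of each strain. The labels do not say what the letter stands for. D2 replicates 13, 14 and 19 were the arrays least like their own strain, with correlations over all gene values of 0.979 to 0.980 with the mean of the other D2 arrays, where the other 19 arrays lay between 0.981 and 0.991 (B6 replicate 5 being the next lowest). Probesets differ in brightness, so levels are compared between strains and not between genes.

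Most members differed little between the strains. By limma's test over all 16016 genes, 6 of the 34 members were called at an adjusted p under 0.05 (17.6%), beside 10.8% of all genes. Adcy4, Pde1c, Pde2a and Pde8a were lower in D2 (4 of 34, beside 8.26% of all genes) and Pde5a and Pde6a were higher (2 of 34, beside 2.57%). The called differences were all between 1.23-fold and 1.28-fold, and no member differed by more than 0.35 on the log2 scale. The median difference of the 34 members was -0.041, with 21 lower and 13 higher in D2. The 10 cyclases had a median of -0.013 with 1 called, and the 22 cyclic nucleotide phosphodiesterases a median of -0.065 with 5 called. The B6 and D2 values overlapped for all 34 members, where 1.18% of all genes had values that did not overlap. With each array centred on its median gene value, 3 members were called, Pde2a lower and Pde5a and Pde6a higher, and 1023 of 1779 calls over all genes were higher in D2 in place of 412 of 1735. With the array median as a covariate 2 members were called, Adcy4 lower and Pde5a higher, and 266 of 495 calls over all genes were higher. Without D2 replicates 13, 14 and 19, 4 members were called, Adcy4 and Pde2a lower and Pde5a and Pde6a higher. In that setting 1223 of 16013 genes were called (7.64%).

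**Figure D1:**
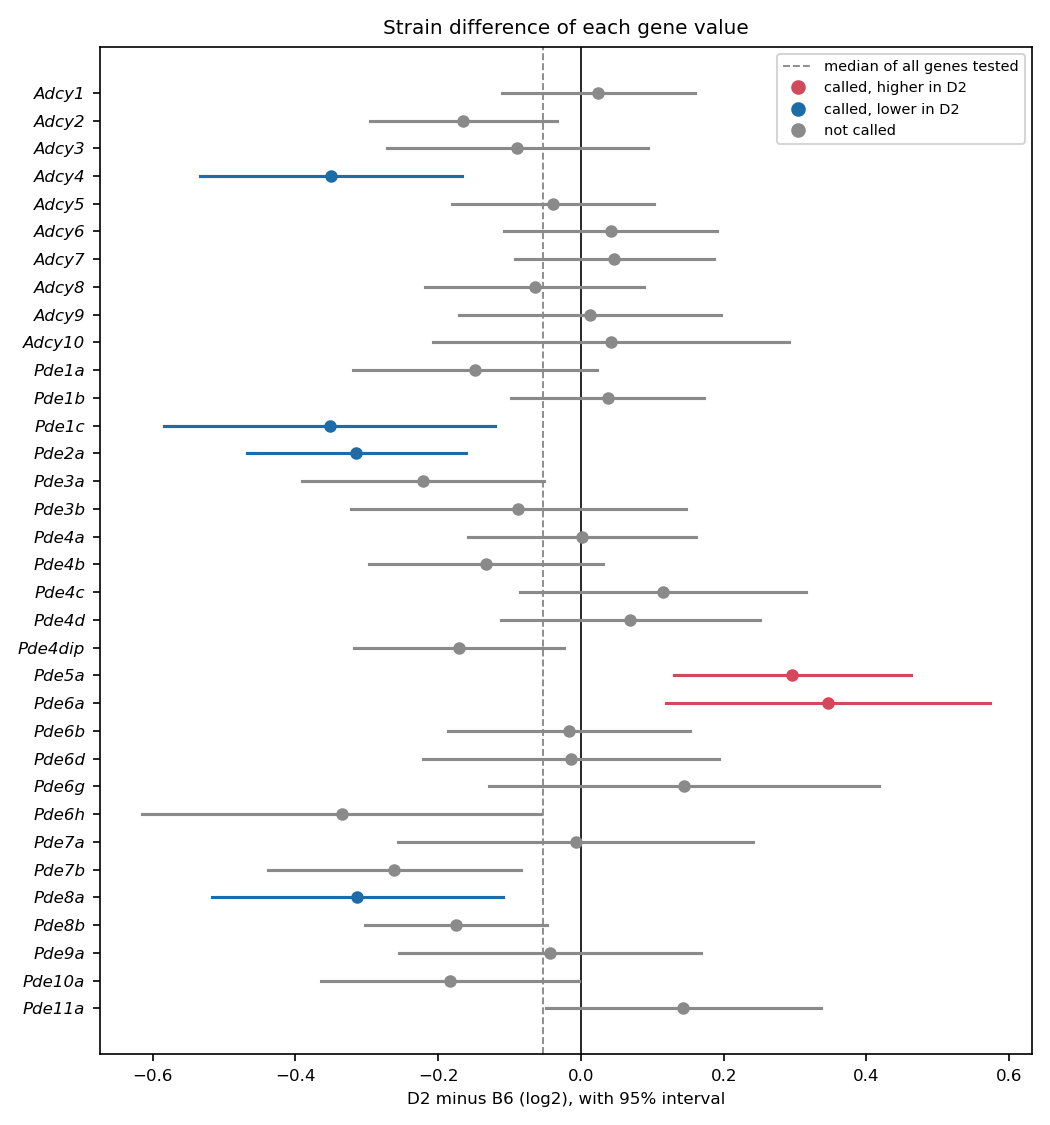
Difference in gene value between D2 and B6 (x axis, D2 minus B6, log2) for the 34 members tested (y axis), with 95% intervals from limma, 10 B6 and 12 D2 arrays. Coloured points are the 6 called members and grey points the 28 others; the dashed line is the median of all genes tested, -0.053.

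Among the cyclases, Adcy4 was the one that fell. Adcy4 encodes a cyclase that G protein beta-gamma subunits stimulate. Its gene value over 25 kept probesets ran from 2.65 to 3.15 in B6, with a median of 2.94, and from 2.20 to 2.95 in D2, with a median of 2.63. In D2, 7 of 12 arrays lay below the lowest B6 array and 1 lay above the B6 median. B6 mice had a mean of 2.93 ± 0.15 (SD, n = 10) and D2 mice a mean of 2.57 ± 0.23 (SD, n = 12). Both means lay not far above the filter level of 1.44. The strains thus differed by -0.35 ± 0.089 (SE), or 1.27-fold, with D2 lower (limma adjusted p = 0.0109). Of its 25 probesets 21 were lower in D2, and 6 were called lower on their own. The difference was -0.35 on the letter A arrays and -0.33 on the letter B arrays. It was -0.25 and not called with each array centred (adjusted p = 0.123), and -0.50 with the array median as covariate (adjusted p = 0.0254).

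The promoters of the 3 members whose call held with each array left out in turn are shown, to give the sequence at their starts. They are RefSeq sequences of the reference strain B6 (build GRCm38.p6), from 250 bases before to 50 bases after an annotated start, written 5′ to 3′ on the gene's strand. No D2 sequence was used. Capitals mark TGACG on either strand (CGTCA on the other), the core of the element that the cAMP-regulated factor CREB binds, and the GC box GGGCGG on either strand (CCGCCC on the other), a site of Sp1 family factors. The match of letters is a description and not a measured site. Adcy4 has 1 entry, chr14:55784023-55784322 on the minus strand, and it holds neither motif.
Adcy4: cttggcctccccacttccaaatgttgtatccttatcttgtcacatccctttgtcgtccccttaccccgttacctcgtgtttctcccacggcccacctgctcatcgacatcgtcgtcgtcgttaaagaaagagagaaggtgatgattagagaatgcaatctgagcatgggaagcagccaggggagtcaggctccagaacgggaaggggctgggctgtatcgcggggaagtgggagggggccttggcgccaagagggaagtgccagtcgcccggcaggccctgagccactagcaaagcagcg

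The other 9 cyclases were not called. Adcy1 and Adcy8, the calmodulin-stimulated cyclases of learning circuits, differed by 0.02 (95% interval -0.11 to 0.16) and -0.06 (-0.22 to 0.09). Adcy1 kept all of its 43 probesets and lay at 8.33 ± 0.10 in B6 mice and 8.36 ± 0.13 in D2 mice (SD, n = 10 and 12, as for all genes below), and Adcy8 at 5.60 ± 0.14 and 5.53 ± 0.16. Adcy3, the cyclase of neuronal primary cilia and of olfaction, lay at 5.63 ± 0.21 and 5.54 ± 0.18 and differed by -0.09 (-0.27 to 0.09). Adcy5, the main cyclase of striatal neurons, lay at 7.36 ± 0.16 and 7.32 ± 0.10, and the strains differed by -0.04 (-0.18 to 0.10). Its calcium-inhibited relative Adcy6 lay at 5.38 ± 0.15 and 5.42 ± 0.14, with a difference of 0.04 (-0.11 to 0.19). Adcy7, a cyclase of brain and immune cells, lay at 3.88 ± 0.15 and 3.93 ± 0.11 and differed by 0.05 (-0.09 to 0.19). Adcy9, a widely expressed form that forskolin activates poorly, lay at 6.02 ± 0.23 and 6.03 ± 0.17 and differed by 0.01 (-0.17 to 0.20). Adcy10, the bicarbonate-sensitive soluble cyclase, rested on 5 of 37 probesets near the filter level, at 1.76 ± 0.29 and 1.80 ± 0.30, and differed by 0.04 (-0.21 to 0.29).

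Adcy2, a beta-gamma-stimulated form, came closest to a call among these. Its gene value over 32 probesets ran from 6.57 to 6.92 in B6, with a median of 6.80, and from 6.47 to 6.79 in D2, with a median of 6.62. All 12 D2 arrays lay below the B6 median and 5 lay below the lowest B6 array. The strains differed by -0.16 (95% interval -0.30 to -0.03), which missed the threshold (limma adjusted p = 0.100), with 30 of 32 probesets lower in D2. Adcy2 was called with the mean over probesets (-0.18, adjusted p = 0.0257) and with the filter at the 75th percentile (-0.18, adjusted p = 0.0475). It was not called with each array centred (-0.066), with the array median as covariate (-0.073) or without D2 replicates 13, 14 and 19 (-0.15). The difference was -0.20 on the letter A arrays and -0.03 on the letter B arrays, called in neither. No fit that left out 1 array called it.

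Pde2a fell in D2. It encodes a phosphodiesterase of both nucleotides that cGMP stimulates, through which cGMP lowers cAMP in neurons. Its gene value over 37 probesets ran from 7.71 to 8.24 in B6, with a median of 8.04, and from 7.48 to 7.92 in D2, with a median of 7.72. All 12 D2 arrays lay below the B6 median and 7 of 10 B6 arrays lay above the highest D2 array. The means were 8.02 ± 0.16 for B6 and 7.70 ± 0.14 for D2 (SD, n = 10 and 12), and they differed by -0.31 ± 0.075 (SE), or 1.24-fold lower (limma adjusted p = 0.00627). The difference ran through the gene, with 34 of 37 probesets lower in D2 and 9 called lower on their own. It was -0.34 on the letter A arrays and -0.22 on the letter B arrays. With the array median as covariate it was -0.33 ± 0.109 (SE) and not called (limma adjusted p = 0.103), so the difference held its size while its SE rose.

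Pde2a has 5 promoter entries, of which 3 are shown, the outermost and those that hold a motif. The entry at chr7:101421441-101421740 holds none, that at chr7:101450270-101450569 holds 1 TGACG match, and that at chr7:101451002-101451301 holds 5 GC boxes (all on the plus strand).
Pde2a, outermost: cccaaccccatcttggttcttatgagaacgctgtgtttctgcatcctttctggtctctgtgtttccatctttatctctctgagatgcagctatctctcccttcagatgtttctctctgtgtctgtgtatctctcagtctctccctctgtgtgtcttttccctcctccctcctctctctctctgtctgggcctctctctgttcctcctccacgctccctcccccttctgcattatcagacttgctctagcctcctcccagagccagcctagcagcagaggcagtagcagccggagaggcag
Pde2a, with TGACG: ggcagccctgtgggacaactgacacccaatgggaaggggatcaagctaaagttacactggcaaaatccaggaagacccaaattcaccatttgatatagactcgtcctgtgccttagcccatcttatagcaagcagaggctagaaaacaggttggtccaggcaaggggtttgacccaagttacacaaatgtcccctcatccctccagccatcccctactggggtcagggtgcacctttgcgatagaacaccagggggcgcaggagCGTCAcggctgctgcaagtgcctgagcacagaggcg
Pde2a, with GC boxes: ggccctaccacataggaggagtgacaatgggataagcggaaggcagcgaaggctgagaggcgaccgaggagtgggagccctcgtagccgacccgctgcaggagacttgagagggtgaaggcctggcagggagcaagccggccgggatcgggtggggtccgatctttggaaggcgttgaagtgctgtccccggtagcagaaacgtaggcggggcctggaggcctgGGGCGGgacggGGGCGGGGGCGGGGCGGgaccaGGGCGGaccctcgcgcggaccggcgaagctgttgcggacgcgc

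Pde1c and Pde8a fell in D2, with calls close to the threshold. Pde1c encodes a calmodulin-dependent phosphodiesterase of both nucleotides, and its gene value ran from 3.67 to 4.47 in B6 (median 4.15) and from 3.32 to 4.32 in D2 (median 3.74). In D2, 5 of 12 arrays lay below the lowest B6 array, and the other 7 lay within the B6 range. The difference was -0.35 ± 0.113 (SE), or 1.28-fold lower (limma adjusted p = 0.0442), and 24 of 26 probesets were lower. Pde8a encodes a cAMP phosphodiesterase of high affinity that common inhibitors do not block, and its gene value ran from 5.06 to 5.88 in B6 (median 5.60) and from 4.92 to 5.56 in D2 (median 5.18). All 12 D2 arrays lay below the B6 median, but 2 lay below the lowest B6 array. The difference was -0.31 ± 0.099 (SE), or 1.24-fold lower (limma adjusted p = 0.0418), with 22 of 24 probesets lower. With the array median as covariate Pde1c was at -0.06 and Pde8a at 0.047, neither called. Of the 22 fits that left out 1 array, Pde1c was called in 6, those without B6 replicates 9 or 11 or D2 replicates 13, 15, 18 or 22 (adjusted p from 0.0159 to 0.0894 over the 22). Pde8a was called in 9, those without B6 replicates 1, 8, 9 or 11 or D2 replicates 15, 17, 22, 23 or 24 (0.0105 to 0.0895). Neither was called with each array centred (-0.25 and -0.21) or without D2 replicates 13, 14 and 19 (-0.34 and -0.24).

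Pde5a and Pde6a were higher in D2. Pde5a encodes the cGMP-specific phosphodiesterase known as the target of sildenafil, present in Purkinje cells and in vascular smooth muscle. Its gene value ran from 4.90 to 5.46 in B6, with a median of 5.33, and from 5.26 to 5.81 in D2, with a median of 5.54. In D2, 9 of 12 arrays lay above the highest B6 array. The means were 5.26 ± 0.19 for B6 and 5.56 ± 0.15 for D2 (SD, n = 10 and 12), and they differed by 0.30 ± 0.081 (SE), or 1.23-fold higher (limma adjusted p = 0.0169). The difference was 0.32 on the letter A arrays, 0.20 on the letter B arrays and 0.51 with the array median as covariate. The 18 probesets did not move together, with 12 higher and 6 lower in D2, from -0.36 to 0.41, and none was called on its own. With the mean over probesets the gene difference was 0.099 and not called (adjusted p = 0.318), and with the filter at the 75th percentile it was 0.21 and not called (adjusted p = 0.0646). The call of Pde5a depends on how its probesets are summarised. Its promoter entry, chr3:122728908-122729207 on the plus strand, holds 1 GC box and no TGACG match.
Pde5a: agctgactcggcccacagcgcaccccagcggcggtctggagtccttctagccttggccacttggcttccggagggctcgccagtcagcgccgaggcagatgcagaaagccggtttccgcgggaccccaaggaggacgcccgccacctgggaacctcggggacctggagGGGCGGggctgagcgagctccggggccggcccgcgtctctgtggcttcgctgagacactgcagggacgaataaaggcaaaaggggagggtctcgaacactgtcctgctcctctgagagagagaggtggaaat

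Pde6a encodes the catalytic alpha subunit of the rod photoreceptor phosphodiesterase, and 7 of its 27 probesets were kept. Its gene value ran from 1.93 to 2.91 in B6, with a median of 2.61, and from 2.49 to 3.31 in D2, with a median of 2.93. In D2, 6 of 12 arrays lay above the highest B6 array. The difference was 0.35 ± 0.110 (SE), or 1.27-fold higher (limma adjusted p = 0.0432), at levels not far above the filter. Without the filter it was 0.078 and not called. It was 0.25 on the letter A arrays and 0.24 on the letter B arrays, called in neither. The call was lost in 11 of the 22 fits that left out 1 array, those without B6 replicates 2, 4, 8 or 12 or D2 replicates 15, 16, 17, 20, 21, 22 or 23, with adjusted p up to 0.173. Without B6 replicate 2, the lowest array, the difference was 0.28. Of 10 photoreceptor and pineal markers 6 were tested and none was called, with differences from -0.04 for Nrl to 0.22 for Tph1. The mean level of these 6 ran from 2.33 to 2.67 in B6 and from 2.35 to 3.01 in D2. Gngt1 and Pdc had fewer than 3 kept probesets and were not tested.

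**Figure D2:**
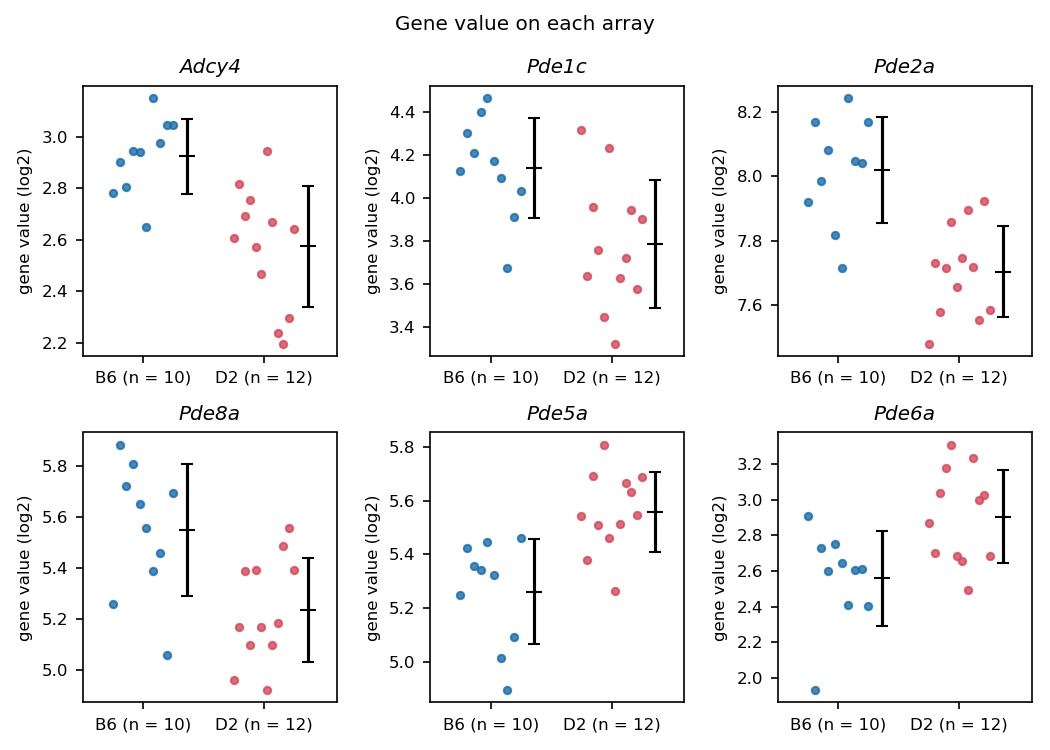
Gene value (y axis, log2) of the 6 called members on each of the 10 B6 and 12 D2 arrays (points, spread sideways by replicate number), with the mean and SD beside them (black). The 2 strains overlap in every panel, and Pde2a and Pde5a have the fewest arrays in the overlap, while B6 replicate 2 lies apart at 1.93 in Pde6a.

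The other 17 cyclic nucleotide phosphodiesterases tested were not called. Pde6h, the cone inhibitory subunit, had the largest of these differences, -0.34 (95% interval -0.61 to -0.06, limma adjusted p = 0.117), over 4 of 7 probesets. Its gene value ran from 2.30 to 3.74 in B6 (median 2.96) and from 2.39 to 3.20 in D2 (median 2.70), so the D2 arrays lay within the B6 range. It was called with the mean over probesets and without B6 replicate 6, and not in the other 21 fits that left out 1 array. Centring each array (-0.24) and the array median as covariate (-0.44) gave no call of Pde6h. Its difference was -0.41 on the letter A arrays and -0.02 on the letter B arrays, called in neither. Pde6b, the rod beta subunit, lay at 2.30 ± 0.16 and 2.28 ± 0.19, and Pde6g, the rod inhibitory subunit, at 2.81 ± 0.34 and 2.95 ± 0.31 over 3 probesets, with differences of -0.02 and 0.14. Pde7b, a cAMP-specific phosphodiesterase of striatum, ran from 6.27 to 7.07 in B6 (median 6.72) and from 6.23 to 6.73 in D2 (median 6.51), and lay just outside the threshold at -0.26 (-0.44 to -0.08, limma adjusted p = 0.0505). All 22 of its kept probesets were lower in D2. Pde7b was called with the file letter as block (-0.27) and on the letter A arrays alone (-0.30). The mean over probesets (-0.27) and an intensity trend in limma also gave calls. It was not called with each array centred (-0.16), with the array median as covariate (-0.12) or without D2 replicates 13, 14 and 19 (-0.22). Neither other filter setting gave a call, and 4 of the 22 fits that left out 1 array did. Pde3a, a cGMP-inhibited phosphodiesterase of heart and vessels, ran from 3.13 to 3.64 in B6 (median 3.35) and from 2.84 to 3.43 in D2 (median 3.12), with 7 of 12 D2 arrays below the lowest B6 array. Its difference was -0.22 (-0.39 to -0.05, limma adjusted p = 0.0871), called with the mean over probesets (-0.17) and at 0.003 with the array median as covariate. Pde10a, the dual phosphodiesterase of striatal projection neurons, ran from 6.55 to 7.23 in B6 (median 6.95) and from 6.46 to 7.05 in D2 (median 6.73). Its difference was -0.18 (-0.36 to -0.003, limma adjusted p = 0.191), with 31 of 38 probesets lower, and it was -0.26 on the letter A arrays and 0.11 on the letter B arrays. Pde8b, a relative of Pde8a, had the smallest spread between mice of all members, and 10 of 12 D2 arrays lay below its lowest B6 array, yet its difference of -0.18 was not called (limma adjusted p = 0.0694). It lay at 6.02 ± 0.08 and 5.84 ± 0.12, and it was called with the file letter as block (adjusted p = 0.0480). Centring each array (-0.08) and the array median as covariate (-0.09) gave no call of Pde8b.

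The 4 cAMP-specific PDE4 genes, targets of rolipram and relatives of the fly memory gene dunce, showed no called gene difference. Pde4a lay at 5.52 ± 0.17 in B6 mice and 5.53 ± 0.16 in D2 mice (SD, n = 10 and 12) and differed by 0.002 (95% interval -0.16 to 0.16). Pde4b lay at 5.47 ± 0.19 and 5.34 ± 0.15 and differed by -0.13 (-0.30 to 0.03). Pde4c lay at 2.80 ± 0.21 and 2.92 ± 0.24 and differed by 0.12 (-0.08 to 0.32). Pde4d lay at 5.06 ± 0.15 and 5.13 ± 0.23 and differed by 0.07 (-0.11 to 0.25). Each interval of these 4 genes includes 0.

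Among the rest, the calmodulin-dependent Pde1a lay at 7.29 ± 0.15 and 7.14 ± 0.20 and differed by -0.15 (-0.32 to 0.02), and Pde1b, of striatal neurons, at 8.19 ± 0.12 and 8.23 ± 0.12 with 0.04 (-0.10 to 0.17). Pde3b, a target of insulin signalling, lay at 5.02 ± 0.27 and 4.93 ± 0.28 (-0.09). The cAMP-specific Pde7a lay at 4.12 ± 0.27 and 4.11 ± 0.31 (-0.01), the cGMP-specific Pde9a at 4.97 ± 0.19 and 4.93 ± 0.27 (-0.04) and the dual Pde11a at 3.21 ± 0.20 and 3.36 ± 0.22 (0.14). Of the members without phosphodiesterase activity, Pde6d lay at 6.97 ± 0.22 and 6.96 ± 0.25 (-0.01). Pde4dip lay at 6.01 ± 0.09 and 5.84 ± 0.17 and differed by -0.17 (-0.32 to -0.02, limma adjusted p = 0.128). Of its probesets 67 of 75 were lower in D2, and it was called with the mean over probesets. Centring each array (-0.07) and the array median as covariate (-0.09) gave no call of Pde4dip. A difference that missed the threshold does not show that the strains have the same level.

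The largest differences of single probesets exceeded those of the gene values, which are medians over many probesets. The part of taking medians in this was not tested. Of the 834 kept member probesets, 36 were called in the test over all kept probesets, beside 4.06% of all kept probesets with 1 gene symbol. They were 25 lower in D2 (beside 2.79%) and 11 higher (beside 1.27%), and of the 25 lower ones 9 lay in Pde2a and 6 in Adcy4. Pde4d had 5, of which 4 were higher in D2 and 1 lower, while its gene value was not called. The lowest was in Adcy4 (probeset 4780023), at 2.40 in B6 and 1.24 in D2, where the D2 level is below the filter level. The next was probeset 5366323 of Pde2a, with a mean level of 5.05 ± 0.35 for B6 and 3.99 ± 0.34 for D2 (SD, n = 10 and 12), D2 minus B6 being -1.06. The highest was probeset 5459038 of Pde4d, with 3.80 ± 0.61 for B6 and 4.90 ± 0.25 for D2, D2 minus B6 being 1.10.

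**Figure D3:**
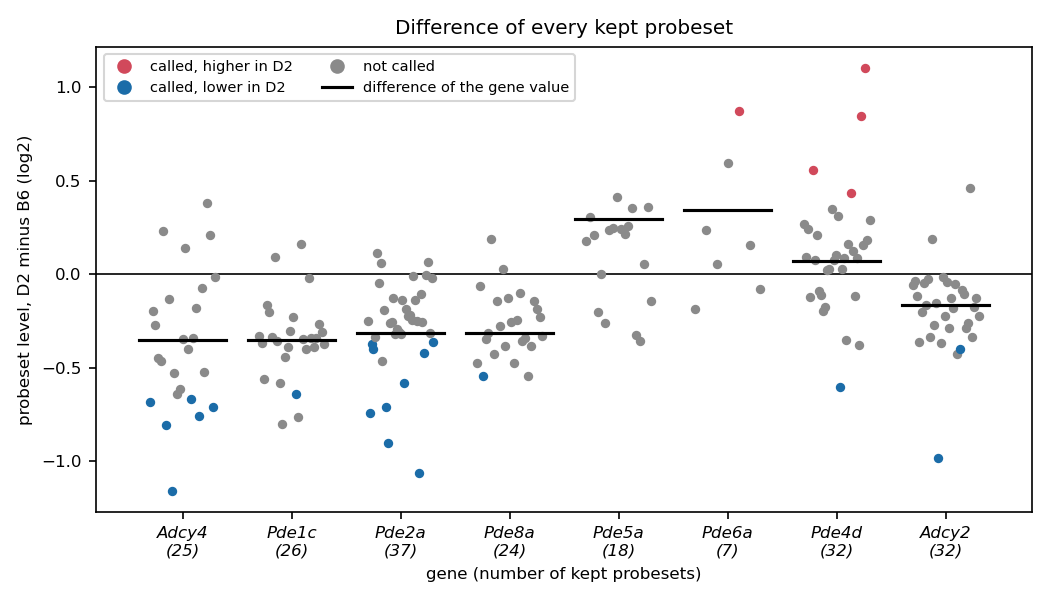
Difference in level between D2 and B6 (y axis, D2 minus B6, log2) of every kept probeset (points, in order of probeset number within a gene) of the 6 called members, Pde4d and Adcy2 (x axis, with the number of probesets). Colours mark probesets called on their own and black lines the difference of the gene value; most probesets of Pde2a, Pde8a and Pde1c lie below 0, and those of Pde5a and Pde4d lie on both sides.

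Single probesets were also compared relative to their gene by the splicing index, which subtracts the gene value from the probeset level within an array (log2). Calls needed an adjusted p under 0.05 together with a difference of at least 0.5. Of the 833 member probesets with an index, 14 were called (beside 1.66% of all probesets tested), 6 higher in D2 (beside 0.894%) and 8 lower (beside 0.77%). They lay in 8 of the 34 members, beside 13.9% of all genes with at least 1 such call, and members have 24.5 indexed probesets per gene against 14.7 over all genes. Per probeset, the members' share was 1.68%, close to that of all probesets. The B6 and D2 index values overlapped for all 14. The share of all index calls with such overlap was not counted. For 9 of them the probeset's own level was called in the same direction, and for 5 it was not called. The exon in which each probeset lies was not looked up here. No table of D2 variants under the probes was used, so the part of sequence variants in these values was not tested.

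Pde4d, whose many promoters and alternative 5′ exons make long, short and supershort forms, had index calls in both directions. Probeset 5459038 had an index from -2.41 to -0.30 in B6, with a median of -1.34, and from -0.60 to 0.07 in D2, with a median of -0.23. The B6 arrays were spread widely, and 2 of them lay in the range of D2. The difference was 1.03 ± 0.17 (SE, limma adjusted p = 0.000798). Probeset 5020474 (level 7.27 in B6 and 6.67 in D2) went the other way, from 1.81 to 2.58 in B6 (median 2.21) and from 1.09 to 1.94 in D2 (median 1.57). Its difference was -0.67 ± 0.11 (SE, limma adjusted p = 0.000350). Probeset 5411340 was higher by 0.78, with a level of 1.73 in B6 and 2.58 in D2. The gene value of Pde4d differed by 0.07 and was not called, with 23 of 32 probesets higher in D2.

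Adcy2 had index calls in both directions too. Probeset 4829428 ran from -1.63 to -0.64 in B6 (median -1.27) and from -3.19 to -1.60 in D2 (median -1.81), so that the strains met at a narrow edge. The difference was -0.82 ± 0.17 (SE, limma adjusted p = 0.00906), and the level fell from 5.56 ± 0.34 to 4.58 ± 0.52 (SD). Probeset 5427393 was higher by 0.62 on the index, while its level was not called. Pde2a had 2 calls, both lower in D2, at -0.75 (5366323, limma adjusted p = 0.00156) and -0.59 (4814711, limma adjusted p = 0.00559), so these probesets fell more than the gene did.

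The index calls of Pde5a were all lower in D2, the opposite of its gene value. They were -0.65 (5242232), -0.56 (4877138) and -0.50 (4631355), and the levels of these probesets were not called. Probeset 5242232 ran from 1.27 to 1.82 in B6 (median 1.68) and from 0.51 to 1.35 in D2 (median 0.96), with its level at 6.86 ± 0.30 and 6.50 ± 0.24 (SD, n = 10 and 12). With the mean over probesets as the gene value the 3 differences were -0.45, -0.36 and -0.30, and none was called. Single calls were made in Pde1a (5545430, 0.73 ± 0.15, SE), Pde10a (4761111, 0.70), Pde11a (4374041, 0.60) and Pde7b (4840599, -0.54). The Pde11a probeset lay at a level of 1.91 in B6 and 2.65 in D2, not far above the filter. The level of the Pde1a probeset was 4.06 ± 0.37 in B6 and 4.64 ± 0.24 in D2 (SD), and its index ran from -4.18 to -2.81 in B6 and from -2.91 to -1.94 in D2.

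**Figure D4:**
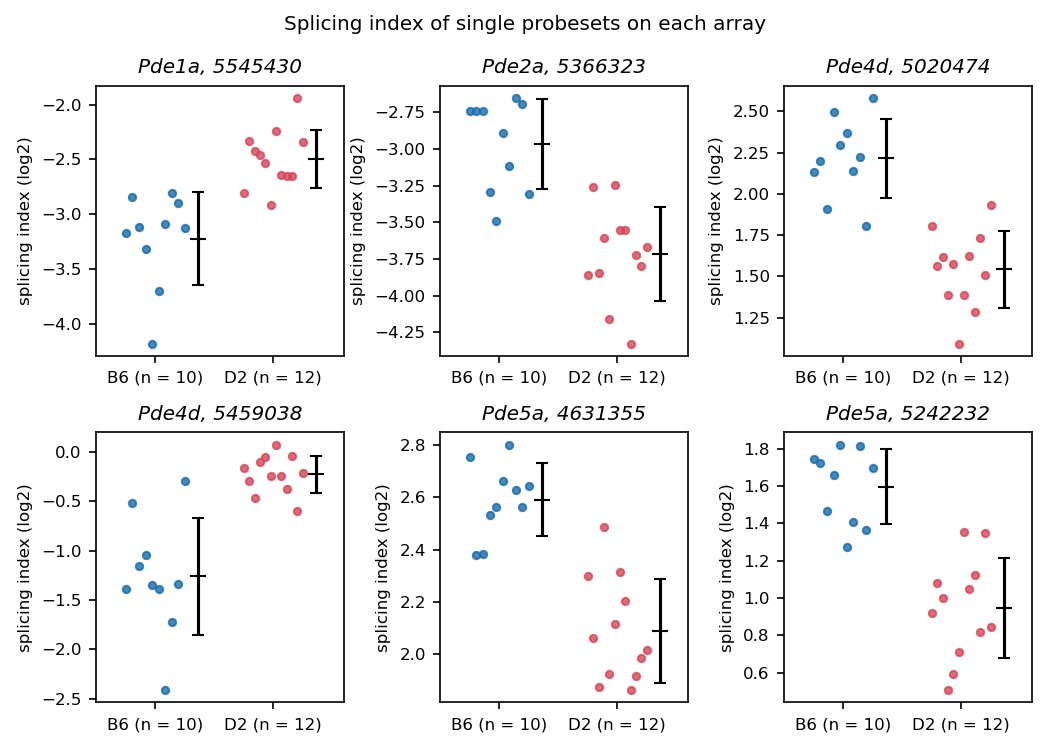
Splicing index (y axis, log2 level of the probeset minus the gene value) of the 6 called probesets with the lowest adjusted p on each of the 10 B6 and 12 D2 arrays (points), with mean and SD (black). Each title gives the gene and the probeset number; the D2 arrays lie higher in Pde4d 5459038 and Pde1a and lower in the other 4, with some overlap in each.

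Between mice of 1 strain the gene values of most members varied less than the middle of all genes. The SD within strains had a median of 0.193 over the 34 members and of 0.254 over all genes tested, and 27 members lay below the latter. It was smallest in Pde8b (0.103), Adcy2 (0.111), Pde1b (0.119) and Adcy1 (0.120), and largest in Pde6h (0.338) and Pde6g (0.328), which rest on 4 and 3 probesets. A gene value is a median over probesets, and members have 24.5 indexed probesets per gene against 14.7 over all genes. The part of probeset number in the smaller spread was not tested.

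The promoter motifs were counted over all members. RefSeq's table holds 51 entries of 26 members. The 8-base form of the element, TGACGTCA, is in none of them and in 1.79% of all 32851 entries of the table. Its core TGACG is in entries of 9 members (Adcy7, Adcy9, Pde1a, Pde2a, Pde4a, Pde4b, Pde6h, Pde8a and Pde8b), 9 of 51 entries, beside 20.8% of all entries. The GC box is in 18 of the 51 entries, beside 35.7%. The longer element contains the core.

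The genes next to the called members were also looked at, in the order of the GRCm38.p6 gene table. Of the 5 nearest tested genes on each side of the 6 called members, 60 in all, 12 were called (20%), beside 10.8% of all genes. Of these 12 calls, 6 lay around Pde5a, where Sec24d (-0.59), Gclm (-0.46), Abca4 (-0.43), Fnbp1l (-0.40) and Usp53 (-0.36) fell in D2 and 1810037I17Rik (0.39) rose. Around Adcy4, Tgm1 (0.49) and Nfatc4 (0.33) rose and Cbln3 (-0.40) fell. Pde2a, Pde1c and Pde6a had 1 called neighbour each, Atg16l2 (0.42), 6430584L05Rik (0.64) and Arhgef37 (-0.30). Pde8a had none among 10.

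Of 64 other listed genes of cyclic nucleotide signalling 54 were tested. In D2 3 fell (5.56%, beside 8.26% of all genes), none rose (beside 2.57%) and 51 were not called (median difference -0.056, beside -0.053 of all genes). None of 7 G protein alpha subunits was called (Gnai3 at -0.25, Gnaz at -0.20), nor any of 9 subunits and inhibitors of protein kinase A (Prkaca at -0.22, Pkia at -0.19). Of 10 A-kinase anchoring proteins, which place the kinase beside its targets, Akap5 fell by 0.41 ± 0.081 (SE, limma adjusted p = 0.00119) and Akap13 by 0.32 (limma adjusted p = 0.0155). Akap5, the anchor of kinase and phosphatases at the postsynapse, was at 6.13 in B6 and 5.72 in D2. Of 7 other effectors tested, Rapgef3, which encodes a form of the cAMP sensor Epac, fell by 0.31 (limma adjusted p = 0.0122). Rapgef4, which encodes another form of Epac, was at -0.17 and not called (limma adjusted p = 0.195). None of 9 genes of CREB and its partners was called (Crem at -0.24, Crtc1 at 0.15), none of 11 of cGMP synthesis and kinases (Prkg2 at -0.20, Gucy1a1 at -0.19), and of the calmodulin genes Calm3 alone was tested (-0.10, not called).

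Of 77 cell type markers tested 20 fell in D2 (beside 8.26% of all genes), 1 rose (beside 2.57%) and the others were not called. Of 8 choroid plexus and ependymal markers 4 fell in D2 (median -0.39, mean level from 4.98 to 5.32 in B6 and from 4.47 to 5.04 in D2). Of 7 tested genes of endothelial and mural cells and meninges 2 fell, Acta2 by 0.70 and Pecam1 by 0.33 (median -0.155, mean level from 5.17 to 5.55 in B6 and from 4.96 to 5.50 in D2). Of the 5 not called, Col1a1 (0.33), Dcn (0.10) and Rgs5 (0.07) were higher in D2, and Flt1 (-0.16) and Pdgfrb (-0.31) were lower. Of 8 tested striatal markers Drd2 fell by 0.25 and 7 were not called (median -0.12). Of 9 cerebellar markers tested 2 fell, of 8 microglial and macrophage markers 3, of 6 oligodendrocyte markers 2 and of 7 neuronal markers 1, while of 7 astrocyte markers 3 fell and 1 rose. Of 3 red blood cell genes 2 fell, Hbb-b1 by 4.12 and Alas2 by 0.90, while Slc4a1 was at 0.01 and not called. The part of sequence variants under the probes in these marker values was not tested. None of 5 olfactory or 3 pituitary markers was called. The part of cell make-up in the members' differences was not tested, and in whole brain fewer cells of a type and less RNA per cell cannot be told apart.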

How the data were processed

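The authors deposited log2 expression values of probesets for 22 arrays, and the submitters' processing notes name RMA, affy (version 1.12.2) and R (version 2.6.0). RMA corrects background, makes the distributions of the arrays alike and summarises probes into probesets; its options and the genome build are not given in the sources used here. Per the labels, 24 arrays were hybridised and 2 scanned on another scanner were left out. Of 1201338 probesets, 10932 were empty. Members were matched by platform symbol. With limma 3.58.1 in R 4.3.3, lmFit and eBayes compared D2 with B6 over the 16016 genes with at least 3 kept probesets, the 595203 kept probesets and the splicing index of 236114, with Benjamini-Hochberg adjustment. The route was tested on simulated data. Members, lists and tests were chosen with earlier results of these data known. Every member is accounted for. Full statistics go to called members and the 4 largest of the others, and pathway lists give their called genes or the 2 largest. Rapgef4 is given in addition, beside Rapgef3. Alternatives changed scaling, filter, summary, file letter and arrays. Figures used matplotlib 3.10.9. Precision is limited by the number of arrays.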

Additional observations from a re-analysis of the deposited data

Results flagged for a closer look

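The gene value of Pde6a in B6 replicate 2 was 1.93, apart from the other 9 B6 arrays, which lay between 2.40 and 2.91. Of 48 sets of B6 values examined for a sample far from the others (34 gene values and 14 index values), this was the only 1, where chance gives about 1 in 20. The 12 D2 arrays were not examined in this way, since the rule covers groups of at most 10.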

How the results depend on the processing

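Against 6 called members (beside 10.8% of all genes), 3 were called with each array centred on its median gene value (median difference of all genes 0.046). Centring called 11.1% of all genes. With the array median over all probesets as covariate, a different median, 2 were called, beside 3.09% of all genes. Under that covariate 10 member probesets (of 36) and 6 index values (of 14) were called, and Pde8a changed sign to 0.047 (adjusted p = 0.907); the cause was not tested. On the 4 arrays of letter B alone, added after the data were seen, 0 members, 0 probesets and 0 index values were called. That setting has 2 arrays per strain and called 0.471% of all genes. Without D2 replicates 13, 14 and 19, 22 member probesets were called. With 1 array left out in turn, 3 to 7 members, 25 to 40 probesets and 9 to 16 index values were called. Adcy4, Pde2a and Pde5a were called in all 22 such fits, which called 8.1% to 12.2% of all genes. With the mean over probesets 9 members were called, all lower in D2, and Pde5a and Pde6a were not. That setting called 17% of all genes, beside 10.8% in the main fit. The shares of all probesets and index values called under these settings are not given here. No paired analysis was possible because the strains share no replicate numbers.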
